A study of Mus musculus with 8 samples.

Results

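The genes described here encode the mouse MHC class I molecules and the machinery that makes and loads their peptides. They are 10 of the 53242 genes in the deposited tables, and each was found in both tables by its symbol. H2-K1 and H2-D1 encode the class I heavy chains, B2m the light chain, Tap1 and Tap2 the peptide transporter, Tapbp the loading factor tapasin, Psmb8, Psmb9 and Psmb10 the catalytic subunits of the immunoproteasome, and Nlrc5 the transactivator of class I genes.

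RNA was sequenced from C57BL/6 splenic B cells, isolated at 8 to 12 weeks of age. The donors were either Eif4a1 fl/fl Cd23-cre (called 4A1 KO) or Eif4a1 +/+ Cd23-cre (called control). Both genotypes carried the Cre transgene, which deletes floxed exons from the splenic immature B cell onwards. EIF4A1 is the RNA helicase of the EIF4F complex, which unwinds the 5′ ends of mRNAs for translation. B cells of both genotypes were cultured for 24 h with 40 ng/ml IL4 on irradiated CD40LB cells, a fibroblast line that displays CD40 ligand and secretes human BAFF, and the feeder cells were then removed with an antibody against H-2Kd. Each genotype has 4 libraries, numbered 1 to 4, of which 1 and 3 came from males and 2 and 4 from females. Replicates 1 and 2 form batch A, and 3 and 4 form batch B. The study left replicate 1 of both genotypes out of differential expression because of reduced viability. Unless stated otherwise, the model fits below therefore used replicates 2 to 4 (n = 3 per genotype). Fits of interactions with sex or batch used all 8 libraries, and single values are given for all 8.

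Class I molecules display peptides from inside the cell to CD8 T cells. The proteasome cuts proteins into peptides, TAP carries the peptides into the endoplasmic reticulum, and tapasin with calreticulin and ERp57 holds the heavy chain and beta-2-microglobulin until a peptide binds. Interferon exchanges the constitutive catalytic subunits of the proteasome (encoded by Psmb6, Psmb7 and Psmb5) for those encoded by Psmb9, Psmb10 and Psmb8, and B cells hold immunoproteasomes without infection. NLRC5 has no DNA-binding domain of its own and acts on class I, B2m, Tap1 and Psmb9 promoters through RFX, CREB/ATF and NF-Y proteins.

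Between 31727557 and 43210858 reads were counted per library. Eif4a1 had 748 to 940 CPM (counts scaled by normalized library size) in the control and 556 to 689 CPM in the 4A1 KO libraries, a log2 fold change of -0.44 ± 0.05 (SE; edgeR, adjusted p = 1.15e-04), and these counts include exons outside the deletion. The 8 B cell markers summed to 6648-7777 CPM in control and 7024-7453 CPM in 4A1 KO libraries, with Fcer2a the most abundant, while 4 of the 8 (Cd79a, Cd79b, Cd22 and Cr2) were called decreased and the median log2 fold change of the 8 was -0.45. Of the 5 plasma cell markers 3 were called decreased (Sdc1, Prdm1 and Xbp1), with a median of -0.64 over the 5, and they summed to 622-929 CPM in control and 549-691 CPM in 4A1 KO libraries. The part of these marker changes in the results below was not tested. The 13 feeder fibroblast markers summed to 29.7-52.6 and 25.6-38.1 CPM, 2 of them were at 0 throughout, and Fn1 was called increased (log2 fold change 0.86) and Col3a1 decreased (-1.57). Of the 8 T cell markers, 7 stayed under 10 counts in every library, Cd28 among them, and Lck did not. The 6 erythroid markers, led by Hbb-bs and Hbb-bt, stayed under 10 as well.

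All 10 class I and immunoproteasome genes were measured in every library and passed the filter on low counts. The class I chains were higher in 4A1 KO B cells, the immunoproteasome subunits and Nlrc5 were lower, and the 2 transporter genes did not pass the test. A gene passed the test at an adjusted p under 0.05 in edgeR, and it was called where its log2 fold change also exceeded 0.5 in size, the thresholds of the study. Of the 10 genes, 4 rose (H2-K1, H2-D1, B2m and Tapbp) and 4 fell (Psmb8, Psmb9, Psmb10 and Nlrc5). The same test was passed by 53.0% of all genes, 26.3% upwards and 26.7% downwards, and the difference of the 8 of 10 from this background was not tested. With the fold change threshold, 3 genes were called (Psmb8, Psmb9 and Nlrc5, all decreased) against 25.3% of all genes (13.7% decreased), and 0 were called increased by edgeR or by DESeq2 against 11.6% of all genes, although 4 had positive changes at an unadjusted p under 0.05 in edgeR. The median log2 fold change of the 10 genes was -0.06, that of all 14218 genes tested 0.01. In these bulk samples, a change in the number of cells of a type cannot be told apart from a change in RNA per cell.

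**Figure D1:**
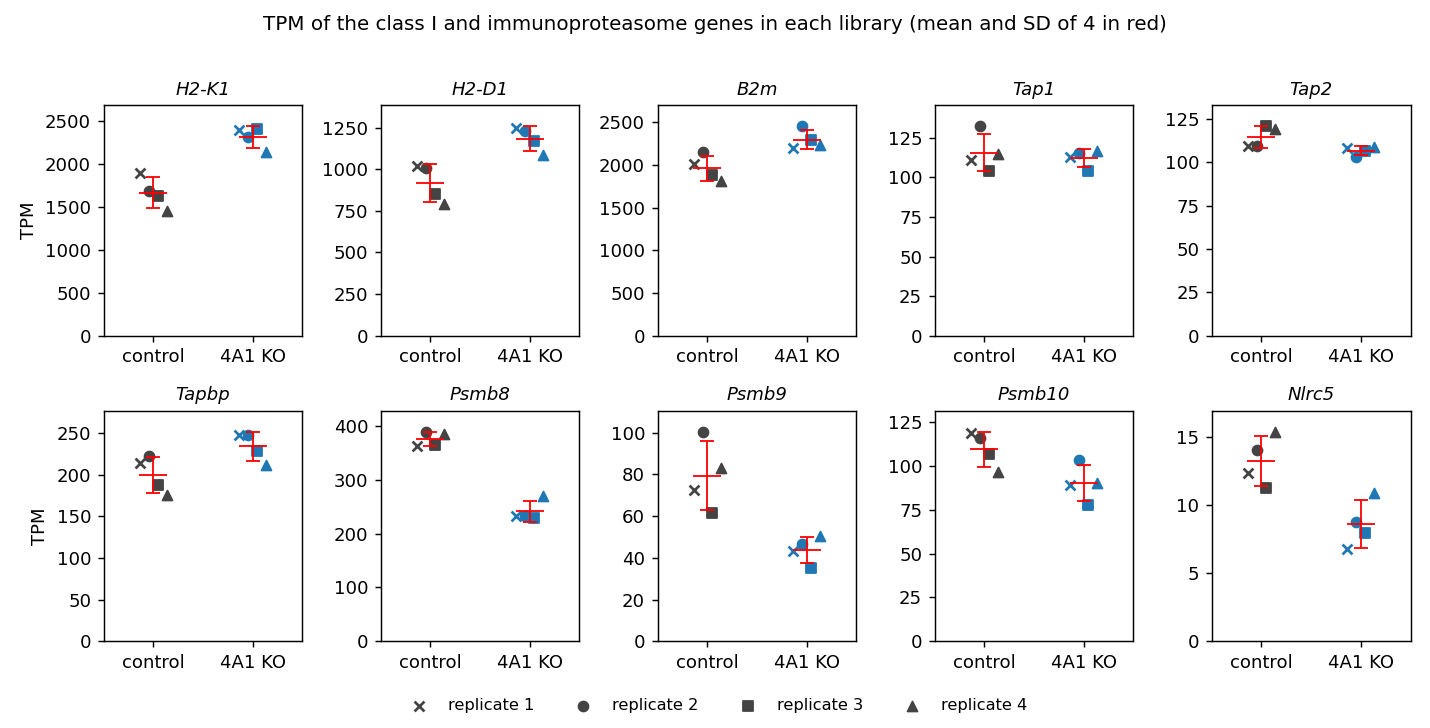
TPM (linear axes from 0) of each of the 10 genes in the control (grey) and 4A1 KO (blue) libraries, with a symbol for each replicate number and the mean and SD of 4 libraries in red. The genotypes do not overlap for H2-K1, H2-D1 and B2m, higher in 4A1 KO, nor for Tap2, Psmb8, Psmb9 and Nlrc5, lower in 4A1 KO.

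H2-K1 and H2-D1 encode the classical heavy chains, the polymorphic proteins whose groove holds the peptide. Levels are given in TPM, which scale reads by transcript length and library depth, so that genes can be compared. H2-K1 (ENSMUSG00000061232, GRCm39 chr17:34214987-34219321, minus strand) had 1895, 1684, 1626 and 1455 TPM in control replicates 1 to 4. In 4A1 KO replicates 1 to 4 it had 2401, 2312, 2407 and 2142 TPM. Every 4A1 KO library lay above every control library (two-sided exact permutation test, p = 0.0286, the smallest that 4 against 4 libraries can give). In counts the log2 fold change was 0.50 ± 0.05 (SE; edgeR, adjusted p = 4.42e-05), or 41.0% higher. At 0.496 it lay just under the fold change threshold, and it was called where replicate 2 was left out (0.54), with upper quartile normalization (0.52) and in TPM (limma, 0.53, adjusted p = 0.00484), but not in TPM with all 8 libraries (0.48).

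H2-D1 (ENSMUSG00000073411, chr17:35481691-35486475, plus strand) had 1017, 1009, 852 and 793 TPM in the control replicates. The 4A1 KO replicates had 1248, 1228, 1171 and 1083 TPM, again all above the control (exact permutation test, p = 0.0286). Its log2 fold change in counts was 0.40 ± 0.05 (SE; edgeR, adjusted p = 2.02e-04), or 32.4% higher. Together the heavy chains took 2248 to 2913 TPM in control and 3225 to 3650 TPM in 4A1 KO B cells.

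Heavy chain sequences are close to those of other class I genes. Of the distinct 50-base words in the coding transcripts of H2-K1, 12.2% also occurred in another gene, among them H2-Q4, H2-Q10 and H2-D1, and for H2-D1 it was 11.8%. How reads that fit several genes were counted is not given in the sources used here, so part of either level may belong to a relative. H2-K1 had 43604 to 66929 counts per library, and H2-Q4 had 4568 to 6645. H2-Q4 had a log2 fold change of 0.44 ± 0.06 (SE; adjusted p = 2.57e-04) and H2-Q10, with 111 to 187 counts, 0.40 ± 0.15 (SE; edgeR, adjusted p = 0.0443). H2-Q7, which shared 4.98% of the words of H2-D1, had 318 to 680 counts in control and 379 to 557 in 4A1 KO libraries. H2-T23, which shared 3.5%, had 2673 to 3579 and 2328 to 2982 counts, so both overlapped between the genotypes in counts. The feeder cells, which carry an H-2K of their own, left the marker traces given above, and their part in the heavy chain reads was not tested. Markers of myeloid and dendritic cells, which also express class I, summed to 29.1-38.8 CPM in control and 41.0-57.3 CPM in 4A1 KO libraries without overlap. Zbtb46, the most abundant of these 11 genes, and Adgre1 were called increased (log2 fold changes 0.68 and 0.62), and the median over the 6 tested was 0.63. Siglech had 1 count over the 8 libraries, and the part of such cells in the result was not tested.

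B2m encodes beta-2-microglobulin, the invariant light chain without which class I molecules do not reach the surface. B2m (ENSMUSG00000060802, chr2:121977957-121983594, plus strand) had 2007, 2147, 1885 and 1813 TPM in the control and 2201, 2452, 2298 and 2233 TPM in the 4A1 KO replicates. The lowest 4A1 KO library was above the highest control library (exact permutation test, p = 0.0286). In counts the log2 fold change was 0.27 ± 0.04 (SE; edgeR, adjusted p = 9.86e-04), a smaller rise than for the heavy chains, and without the replicate block the adjusted p was 0.0542. The ratio of H2-K1 to B2m TPM within a library was 0.784 to 0.945 in control and 0.943 to 1.09 in 4A1 KO B cells, a log2 difference of 0.25 (exact permutation test, p = 0.0571, adjusted p = 0.10 over 7 ratios). That of H2-D1 to B2m was 0.437 to 0.507 and 0.485 to 0.567 (exact permutation test, p = 0.0857, adjusted p = 0.12). Both ratios overlapped between the genotypes, but with libraries paired by replicate number each was higher in the 4A1 KO library in 4 of 4 pairs. The smallest two-sided p that an exact sign-flip test over 4 pairs can give is 0.125, which both had (adjusted p = 0.175 over 7 ratios).

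The promoter windows of the 3 genes for the class I chains hold binding motifs at an exact spacing that the other 5 windows lack. Class I promoters are known for a kappaB site, an interferon-stimulated response element (ISRE) and a composite of boxes that RFX, CREB/ATF and NF-Y bind side by side and that NLRC5 works through. RefSeq promoter windows were at hand for 8 of the 10 genes, all except Tap2 and Nlrc5, and the 250 bases before the start were searched on both strands. A CREB/ATF half-site with the letters TGACG, followed after 20 bases by the reverse of an NF-Y box, which reads ATTGG here and CCAAT on the other strand, occurred in 0.0913% of 32851 promoters, 30 in all, and H2-K1, H2-D1 and B2m were among them. Distances are counted from the RefSeq starts. For 7 of the 8 genes, all except H2-K1, these lie inside the annotated gene, by 53 bases (Psmb10) to 3579 bases (Tapbp), so that the windows are not those before the printed gene starts, and the sequences printed for H2-D1, B2m and Psmb8 lie inside the gene. No spacing other than 20 bases was searched, and it was not among the planned comparisons. Its rarity is therefore no test of these 3 genes. The sequences below are from RefSeq (GRCm39, 5′ to 3′ in the direction of transcription), with both motifs in capitals. They are shown because the windows of Psmb8, Psmb9, Psmb10, Tap1 and Tapbp lack this spacing.
H2-K1, chr17:34219333-34219362, minus strand, starting 41 bases before the start of the gene: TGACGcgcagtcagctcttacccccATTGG
H2-D1, chr17:35481969-35481998, plus strand, starting 101 bases before the start: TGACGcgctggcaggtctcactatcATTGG
B2m, chr2:121978090-121978119, plus strand, starting 78 bases before the start: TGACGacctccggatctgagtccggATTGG

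The kappaB motif GGGNNTTCCC was present in 1.53% of all promoters and in 2 of the 8, H2-K1 and H2-D1. In both it began 70 bases before the TGACG, and it is shown because both heavy chain genes share it at this spacing, with the motif in capitals.
H2-K1, chr17:34219413-34219442, minus strand: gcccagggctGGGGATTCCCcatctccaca
H2-D1, chr17:35481889-35481918, plus strand: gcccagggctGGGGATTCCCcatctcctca

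Each interferon motif searched matched 1 of the 8 promoter windows, and the part of these motifs in the changes was not tested. The ISRE core GAAANNGAAA (2.98% of all promoters) occurred in B2m, which rose, and the gamma interferon activation site TTCNNNGAA (7.02% of all promoters) in Psmb8, which fell. They are printed with 10 bases on each side and the motif in capitals.
B2m ISRE core, chr2:121978019-121978048, plus strand: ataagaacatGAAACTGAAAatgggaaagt
Psmb8 gamma interferon activation site, chr17:34417062-34417090, plus strand: tcctccgctgTTCCCAGAAgatgcccccc
A match shows only that these letters are present. TGACG alone was in 17.8% of all promoters and in 5 of the 8 genes examined. The CCAAT box alone was in 33.9% and in 6 of the 8, and both are part of the spaced pair. Psmb9 and Tap1 had both motifs, but not at the spacing of 20 bases.

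**Figure D2:**
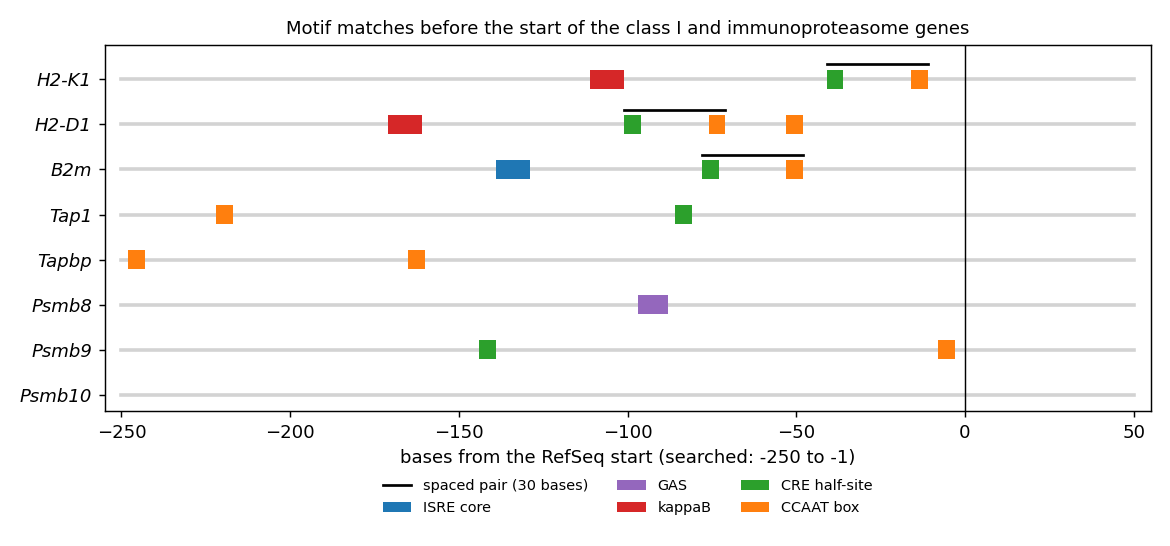
Motif matches in the 8 RefSeq promoter windows, drawn to scale against the distance from the RefSeq start in bases, with a black line over the spaced pair of TGACG and ATTGG. The pair appears in H2-K1, H2-D1 and B2m, and Psmb10 has no match to any of the motifs searched.

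The other genes with the same spaced pair moved in both directions. The pair was in the promoters of 26 genes, of which 24 were in the count table and 20 were tested. Among these 20, edgeR called 1 increased (BC051142, log2 fold change 1.25) and 1 decreased (Nrarp, -0.83), both named after their values were seen, against 25.3% of all genes. DESeq2 called 1 of the 20 increased and 0 decreased. In edgeR, 7 of the 20 passed the adjusted p upwards and 6 downwards. Leaving out H2-K1, H2-D1 and B2m, 17 were tested, of which 4 passed upwards and 6 downwards, and their median log2 fold change was -0.06. H2-M3, a nonclassical class I gene that also has the pair, had a log2 fold change of -0.05 ± 0.07 (SE; edgeR, adjusted p = 0.587).

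Tap1 and Tap2 encode the partner chains of the transporter that moves peptides into the endoplasmic reticulum. Tap1 (ENSMUSG00000037321, chr17:34405996-34416199, plus strand) had 111.2, 132.2, 104.3 and 114.9 TPM in the control and 112.6, 115.3, 104.3 and 116.5 TPM in the 4A1 KO replicates. The genotypes overlapped throughout (exact permutation test, p = 0.80), and the log2 fold change in counts was -0.03 ± 0.06 (SE; edgeR, adjusted p = 0.697). It turned to 0.044 without replicate 2, whose control library was the highest.

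Tap2 (ENSMUSG00000024339, chr17:34422501-34435829, plus strand) had 109.1, 109.3, 120.6 and 119.0 TPM in the control and 108.3, 102.9, 106.6 and 108.5 TPM in the 4A1 KO replicates. The groups did not overlap in TPM (exact permutation test, p = 0.0286), but the gap was under 1 TPM and they did overlap in CPM, at 169 to 173 in control and 151 to 181 in 4A1 KO. The log2 fold change in counts was -0.10 ± 0.05 (SE; edgeR, adjusted p = 0.141). It was -0.05 without replicate 2, and also -0.05 with all 8 libraries. The ratio of Tap1 to Tap2 was 0.865 to 1.21 in control and 0.979 to 1.12 in 4A1 KO B cells (exact permutation test, p = 0.60, adjusted p = 0.686).

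Tapbp encodes tapasin, which bridges TAP and the empty class I molecule. Tapbp (ENSMUSG00000024308, chr17:34134873-34148267, plus strand) had 214, 222, 187 and 176 TPM in the control and 248, 248, 229 and 212 TPM in the 4A1 KO replicates. Each 4A1 KO library was above the control library of its number, by 11.6 to 22.3%, while the genotypes overlapped as groups (exact permutation test, p = 0.0857). The log2 fold change in counts was 0.24 ± 0.05 (SE; edgeR, adjusted p = 0.00224), and without the replicate block the adjusted p was 0.139. Tapbp stood at 1.53 to 1.92 times the TPM of Tap1 in control and at 1.82 to 2.20 times in 4A1 KO B cells (exact permutation test, p = 0.0571, adjusted p = 0.10). With libraries paired by replicate number, this ratio was higher in the 4A1 KO library of each pair (exact sign-flip test, adjusted p = 0.175).

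The immunoproteasome subunits were lower in 4A1 KO B cells. Psmb8 encodes beta5i, the chymotrypsin-like subunit that replaces the product of Psmb5. Psmb8 (ENSMUSG00000024338, chr17:34416690-34420428, plus strand) had 364, 389, 366 and 385 TPM in the control and 234, 233, 228 and 271 TPM in the 4A1 KO replicates. The highest 4A1 KO library remained far below the lowest control library (exact permutation test, p = 0.0286). In counts the log2 fold change was -0.64 ± 0.06 (SE; edgeR, adjusted p = 4.47e-05), 1.55-fold lower.

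Psmb9 encodes beta1i, which replaces the product of Psmb6. Psmb9 (ENSMUSG00000096727, chr17:34400960-34406738, minus strand) had 72.4, 100.2, 61.5 and 82.8 TPM in the control and 43.2, 46.5, 35.3 and 50.2 TPM in the 4A1 KO replicates. The groups did not overlap, although the control libraries spread widely (exact permutation test, p = 0.0286). Its log2 fold change of -0.73 ± 0.09 (SE; edgeR, adjusted p = 1.55e-04), 1.66-fold lower, was the largest in size of the 10 genes, and Psmb9 alone among them passed edgeR's glmTreat, which tests against a log2 fold change of 0.5 rather than 0.

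Psmb10 encodes beta2i, which replaces the product of Psmb7. Psmb10 (ENSMUSG00000031897, chr8:106662362-106665077, minus strand) had 119, 116, 107 and 96.7 TPM in the control and 89.2, 103.3, 78.0 and 90.6 TPM in the 4A1 KO replicates. 4A1 KO replicate 2 lay above control replicate 4, so the groups overlapped (exact permutation test, p = 0.0571). The log2 fold change in counts was -0.25 ± 0.07 (SE; edgeR, adjusted p = 0.0169). Without replicate 3 the log2 fold change was -0.15 (edgeR, adjusted p = 0.160), and without replicate 2 it was -0.28 (edgeR, adjusted p = 0.0604). The adjusted p was 0.170 without the replicate block and 0.0886 in TPM (limma).

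The 3 constitutive counterparts of these subunits were not called by edgeR or DESeq2, although 2 had an unadjusted p under 0.05 in edgeR. Psmb5 had a log2 fold change of -0.13 ± 0.05 (SE; adjusted p = 0.0523), Psmb6 of -0.11 ± 0.05 (SE; adjusted p = 0.106) and Psmb7 of -0.23 ± 0.05 (SE; edgeR, adjusted p = 0.00336). Psmb8 was present at 1.483 to 1.654 times the TPM of Psmb5 in control and at 1.00 to 1.26 times in 4A1 KO B cells. This ratio did not overlap between the genotypes and differed by -0.52 on the log2 scale (exact permutation test, p = 0.0286, adjusted p = 0.10). Psmb9 reached 0.128 to 0.204 of Psmb6 in control and 0.0838 to 0.117 in 4A1 KO B cells, a log2 difference of -0.72 and again without overlap (exact permutation test, p = 0.0286, adjusted p = 0.10). For Psmb10 and Psmb7, which both fell, the ratio was 0.271 to 0.343 and 0.264 to 0.352, a difference of -0.05 (exact permutation test, p = 0.686, adjusted p = 0.686).

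Of the 7 ratios examined, 2 had an unadjusted p under 0.05 and 0 passed after adjustment over the 7 in the exact permutation test, in which the smallest p before adjustment is 0.0286. With the libraries treated as 4 pairs the smallest p is 0.125, so the paired test could not pass.

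**Figure D3:**
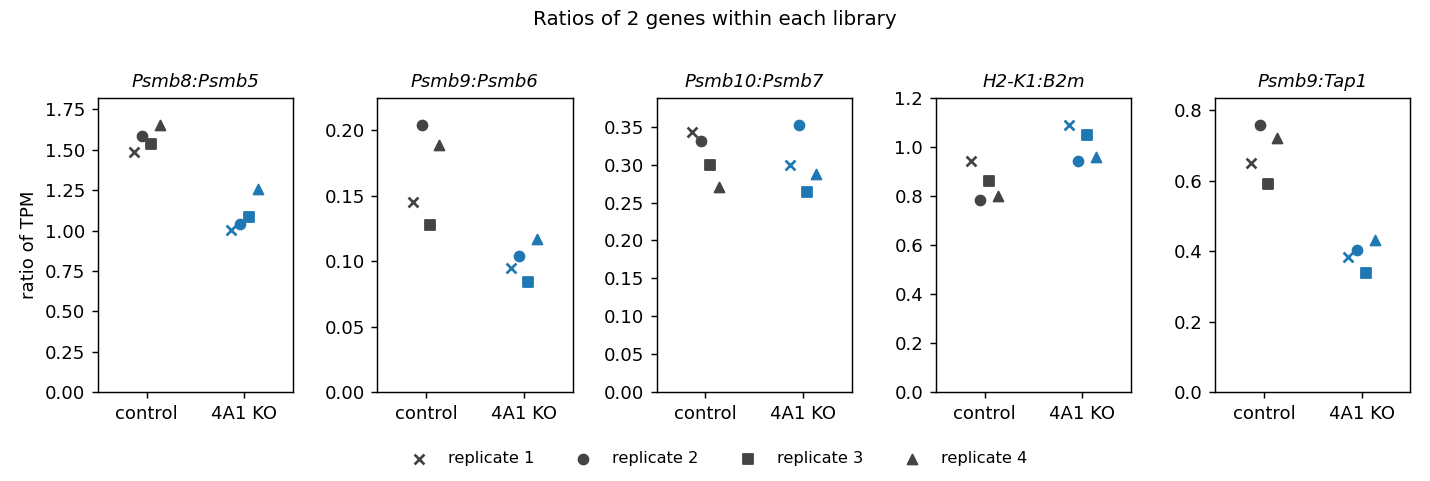
Ratio of the TPM of 2 genes within each library (linear axes from 0), with a symbol for each replicate number. Psmb8:Psmb5 and Psmb9:Psmb6 are lower in every 4A1 KO library than in any control library, while Psmb10:Psmb7 overlaps.

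Psmb9 and Tap1 are neighbours that face away from each other on opposite strands, and a shared promoter between them is known to drive both. Their annotated genes overlap by 743 bases and their RefSeq promoter windows share 275 bases. The deposited counts kept the strands apart, and whether the TPM did is not given in the sources used here. Psmb9 fell and Tap1 did not pass the test, and the ratio of Psmb9 to Tap1 TPM was 0.590 to 0.758 in control and 0.338 to 0.431 in 4A1 KO B cells. This ratio was chosen after its values were seen and is given without a test. Psmb8 starts 490 bases beyond the end of Tap1 and Tap2 follows 2072 bases after Psmb8, so the genes called and not called alternate within this stretch of chromosome 17.

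Nlrc5 encodes the NLR family protein that activates class I genes. Nlrc5 (ENSMUSG00000074151, chr8:95160984-95253900, plus strand) had 12.4, 14.1, 11.2 and 15.4 TPM in the control and 6.77, 8.77, 7.94 and 10.9 TPM in the 4A1 KO replicates. All 4A1 KO libraries were below all control libraries, the closest being 4A1 KO replicate 4 and control replicate 3 (exact permutation test, p = 0.0286). The log2 fold change in counts was -0.61 ± 0.07 (SE; edgeR, adjusted p = 1.79e-04), 1.53-fold lower. Among the genes that NLRC5 is known to act on, H2-K1, H2-D1 and B2m rose, Psmb9 fell and Tap1 did not pass the test.

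Ordered by TPM, control B cells expressed B2m (1963 ± 146, SD, n = 4) and H2-K1 (1665 ± 182) at levels whose ranges overlapped, followed without overlap by H2-D1 (918 ± 113), Psmb8 (376 ± 13.2) and Tapbp (200 ± 21.6). Tap1, Tap2 and Psmb10 overlapped their neighbours at 116, 115 and 110 TPM on average. Psmb9 came next and overlapped Psmb10, and Nlrc5 (13.3 ± 1.82) was the lowest. In 4A1 KO B cells H2-K1 (2316 ± 124, SD, n = 4) and B2m (2296 ± 112) overlapped at the top, Psmb8 (241 ± 19.8) came down into the range of Tapbp (234 ± 17.3), and Psmb9 (43.8 ± 6.36) no longer overlapped Psmb10. The 10 genes summed to 5051 to 5922 TPM in control and 6317 to 6850 TPM in 4A1 KO libraries, as the abundant chains rose and the genes that fell are expressed less.

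Of 7 genes for the PA28 proteasome activator and for proteasome assembly, 0 were called by edgeR or DESeq2, where edgeR called 25.3% of all genes. In edgeR, 4 had an unadjusted p under 0.05, and 3 had an adjusted one, 2 upwards and 1 downwards. Psme1 and Psme2, which encode the interferon-inducible PA28 subunits, had log2 fold changes of 0.12 ± 0.04 (SE; adjusted p = 0.0547) and 0.21 ± 0.06 (SE; edgeR, adjusted p = 0.0127). Psme3, the nuclear activator, had 0.30 ± 0.04 (SE; adjusted p = 4.79e-04), and Pomp, the maturation factor needed to build new proteasomes, had -0.27 ± 0.05 (SE; edgeR, adjusted p = 0.00139).

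Among 9 genes of peptide trimming and loading, 1 was called, against 25.3% of all genes. It was Pdia3, which encodes ERp57 of the loading complex. Pdia3 had 573, 629, 608 and 625 TPM in the control and 367, 382, 390 and 409 TPM in the 4A1 KO replicates, a log2 fold change of -0.65 ± 0.04 (SE; edgeR, adjusted p = 1.53e-05). Its partner Calr (calreticulin) had -0.25 ± 0.04 (SE; adjusted p = 0.00104) and Canx (calnexin) -0.06 ± 0.04 (SE; edgeR, adjusted p = 0.262). Tapbpl, which encodes the peptide editor TAPBPR, had 0.41 ± 0.05 (SE; adjusted p = 1.79e-04) and Erap1, the aminopeptidase that trims peptides, 0.24 ± 0.05 (SE; edgeR, adjusted p = 0.00315). Within the loading complex Tapbp thus rose, Pdia3 and Calr fell, and Tap1 and Tap2 did not pass.

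Of 18 other class I and class I-like genes, 17 were in the table and 14 were tested. Both edgeR and DESeq2 called 0 of the 14 increased and 3 decreased, where edgeR called 11.6% of all genes increased and 13.7% decreased. At an adjusted p under 0.05 in edgeR there were 2 upwards and 4 downwards, and at an unadjusted one 2 and 5. Hfe, a class I-like regulator of iron uptake, had a log2 fold change of -1.93 ± 0.19 (SE; adjusted p = 6.16e-05) at 1.24 to 1.88 TPM in control. The nonclassical genes H2-T24 and H2-T22 had -1.15 ± 0.22 (SE; adjusted p = 0.00202) and -0.62 ± 0.09 (SE; edgeR, adjusted p = 4.17e-04). H2-T22, a ligand of gamma delta T cells, had 40.4 to 52.6 TPM in control and 25.0 to 31.2 TPM in 4A1 KO libraries.

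**Figure D4:**
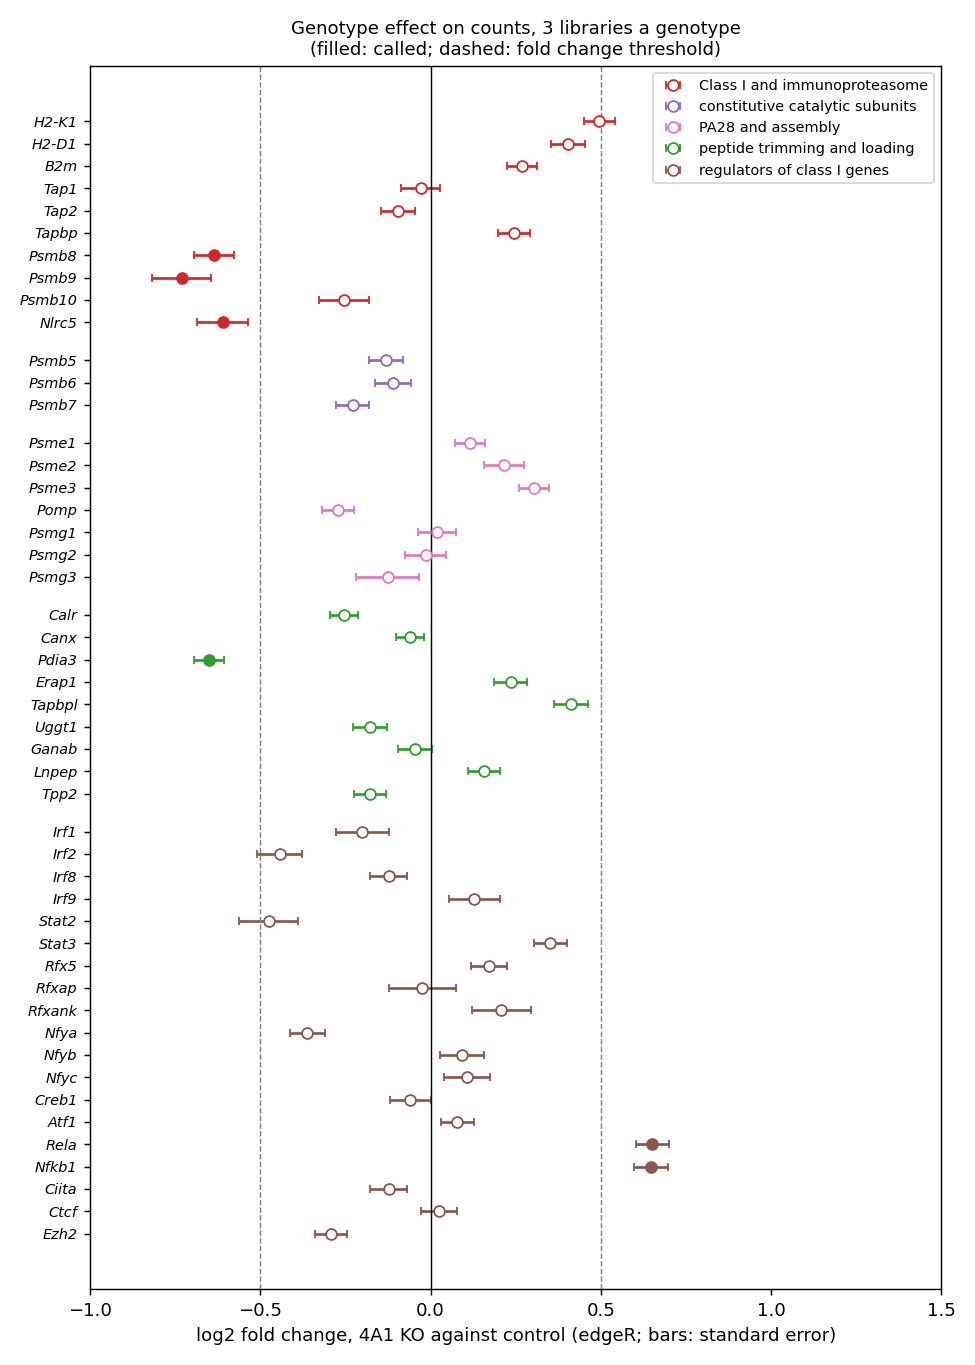
Log2 fold change in counts, 4A1 KO against control (edgeR, 3 libraries a genotype), with its standard error, for the 10 genes and for 4 lists of the pathway. Filled points were called, dashed lines mark the fold change threshold, and H2-K1 lies at the upper line while Psmb8, Psmb9 and Nlrc5 lie beyond the lower one.

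Regulators of class I genes were examined as a list of 19 genes. The NF-kappaB subunit genes Rela and Nfkb1 were called increased, and 0 were called decreased by edgeR or DESeq2, where edgeR called 25.3% of all genes. The lowest log2 fold change of the 19 was -0.48. In edgeR 8 had an adjusted p under 0.05, 4 upwards and 4 downwards, and 5 upwards and 6 downwards had an unadjusted one. Rela had 102 to 123 TPM in control and 159 to 182 TPM in 4A1 KO libraries, a log2 fold change of 0.65 ± 0.05 (SE; adjusted p = 2.01e-05). Nfkb1 had 0.65 ± 0.05 (SE; edgeR, adjusted p = 2.26e-05).

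Irf1, the interferon-induced activator of class I and immunoproteasome genes, had a log2 fold change of -0.20 ± 0.08 (SE; edgeR, adjusted p = 0.0571). The RFX subunits that NLRC5 binds had 0.17 ± 0.05 (Rfx5; SE; adjusted p = 0.0223), -0.02 ± 0.10 (Rfxap; SE; adjusted p = 0.854) and 0.21 ± 0.09 (Rfxank; SE; edgeR, adjusted p = 0.0734). Ciita, the class II counterpart of Nlrc5, had -0.12 ± 0.05 (SE; edgeR, adjusted p = 0.0856). Among 10 genes of interferon receptors and signalling, 1 was called, Socs1, an inhibitor of JAK kinases (-0.63 ± 0.14, SE; edgeR, adjusted p = 0.00398), against 25.3% of all genes. At the adjusted p alone, 4 of these genes passed upwards and 3 downwards.

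The genotype effect had the same direction in both batches for 9 of the 10 genes, all except Tap1, and in both sexes for 8, all except Tap1 (0.049 log2 CPM in males and -0.058 in females) and Tap2 (0.0031 and -0.11). H2-K1 was higher in 4A1 KO by 0.38 log2 CPM in batch A and by 0.54 in batch B, and Psmb9 was lower, with -0.85 and -0.59. Nlrc5 differed by -0.78 and -0.52, and its interaction with batch had an unadjusted p of 0.0435 (edgeR, adjusted p = 0.999). By sex, Psmb10 differed by -0.40 in males and -0.15 in females (edgeR interaction, unadjusted p = 0.0353, adjusted p = 1). The interactions were fitted to all 8 libraries, replicate 1 included. None of the 10 genes had an adjusted interaction p under 0.05 in edgeR, with sex or with batch, and 1 had an unadjusted p under 0.05 in each case. Across 14211 genes the sex interaction passed for 0.00% (0 genes, and 405 at an unadjusted p under 0.05) and the batch interaction for 0.00704% (1 gene, and 610 unadjusted). No other tool was run on the interactions.

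By the second measure, 7 of the 10 genes did not overlap between genotypes in TPM over the 8 libraries, 3 of them higher and 4 lower in 4A1 KO, against 35.6% of all genes (16.0% higher and 19.6% lower). With replicate 1, 2, 3 or 4 left out, 7, 8, 7 and 9 did not overlap, against 50.3%, 42.4%, 40.0% and 46.6% of all genes. In limma's test on TPM, 4 were called (H2-K1 increased, Psmb8, Psmb9 and Nlrc5 decreased), against 20.0% of all genes (8.29% increased and 11.7% decreased), and Nlrc5 was not called without replicate 2.

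The genes closest to H2-K1 in profile over the 8 libraries, by Euclidean distance between centred log2(CPM + 0.5), were Crtc1 (distance 0.102), Nrbp1 (0.110) and Rplp0 (0.141). Those closest to Psmb9 were Serpinf1 (0.159), Abhd4 (0.167) and Gm14150 (0.227). Serpinf1 had a log2 fold change of -1.79 in the fit to counts, against -0.73 for Psmb9, and its highest library had 0.891 CPM, so that the 0.5 added to each value is large beside its level. None of the other 9 genes was among the nearest 3 of either.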

How the data were processed

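The 10 genes and the pathway lists were chosen with earlier results of these data known. Per the labels and the study's methods, the authors trimmed reads with Trim Galore 0.6.6 and aligned them to GRCm39 with HISAT2 2.1.0. The authors counted reads strand-specifically per gene with Seqmonk and left the deposited counts unnormalized. The authors made the deposited TPM from the same alignments with StringTie 2.1.1.

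Counts were fitted with edgeR 4.0.16 (filterByExpr, TMM, quasi-likelihood test) with batch, sex and genotype in replicates 2 to 4, over all 14218 genes that passed the filter. In these 6 libraries batch and sex equal the replicate number as a block. Same-numbered libraries shared batch and sex by label, and their deviations from the genotype means correlated by 0.460 to 0.603 across genes. P-values are two-sided and Benjamini-Hochberg adjusted. For TPM, limma 3.58.1 was run on log2(TPM + 1) of the 12976 genes averaging 1 TPM or more, so differences of low genes are understated. Interactions with sex and batch were fitted with edgeR over all 8 libraries. Single genes and ratios were compared over 8 libraries with exact permutation tests. CPM are TMM-normalized.

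Coordinates are from GENCODE M39, in which 52647 of 53242 identifiers were matched. Promoter windows from RefSeq were located in GRCm39 by exact match. On simulated data edgeR recovered 200 of 200 changed genes among 14082 with 3 false calls. For limma it was 197 of 200 among 11807 with 0 false calls.

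Named genes are the 10, Eif4a1, chosen partners and regulators, the largest called changes of each list (up to 3 in each direction, or the 2 most abundant genes where none was called), near-identical class I genes and the nearest profiles. One further gene that the rule selects is not reported here. Alternatives were normalization, filters, DESeq2 1.42.0, pseudocount, thresholds, no block, all 8 libraries and leaving out each replicate.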

Additional observations from a re-analysis of the deposited data

Results flagged for a closer look

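In 34 groups of 4 libraries (each of the 10 genes and 7 ratios in each genotype), 2 held a library farther from the rest than Dixon's 95% critical value allows, where chance gives about 1.7. Psmb8 in 4A1 KO replicate 4 was the highest of its group at 271 TPM against 228.4 to 233.5 TPM, with a gap of 0.880 of the range, and it still lay below every control library. The ratio of Tapbp to Tap1 in 4A1 KO replicate 4 was the lowest at 1.82 against 2.15 to 2.20, with a gap of 0.871 of the range.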

How the results depend on the processing

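Under 10 of the alternatives for counts that kept all of replicates 2 to 4 (normalization, filters, DESeq2, no block, all 8 libraries), Psmb8, Psmb9 and Nlrc5 were called in each, and H2-K1 was added by upper quartile normalization. glmTreat against a log2 fold change of 0.5 called 1627 genes, of which 1 was among the 10 (Psmb9), where the fitted thresholds called 3596 and 3. The adjusted p alone, with no fold change threshold, gave 7538 genes and 8 of the 10. Leaving out each replicate gave 3083 to 3821 called genes and 3 to 4 of the 10 in counts, 2320 to 2891 and 3 to 4 in TPM, and 7 to 9 of the 10 without overlap in TPM (40.0% to 50.3% of all genes). The log2 fold change of Tap1 then ranged from -0.073 to 0.044 in counts and from -0.098 to 0.010 in TPM, above 0 without replicate 2 only. Without the replicate block, 3000 genes and 3 of the 10 were called. The pairing changed no call of the 10 by both thresholds, but B2m, Tapbp and Psmb10 passed the adjusted p only with it. DESeq2 called 2856 genes, and 2587 with shrinkage. The sex interaction passed for 1 gene without a filter and for 1 with both interactions in one model, and the batch interaction for 2 genes in each. Of the single-gene values, 196 kept direction and side of the adjusted p threshold, 21 no longer passed it, 1 newly passed it and 2 reversed. Crossing of the fold change threshold was not part of this count. The causes were not tested.

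One limit is the number of libraries: with 4 a genotype, a ratio passes the adjustment only when at least 5 of the 7 are at the smallest p, and with 3 a genotype the smallest exact p is 0.10. In TPM (limma), B2m and Tapbp lost the adjusted p on leaving out any 1 of replicates 2 to 4 (0.0644 to 0.111 and 0.0724 to 0.147), and H2-D1 without replicate 3 (0.0593). RNA levels say nothing of protein or of class I at the surface.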
